A study of Mus musculus with 6 samples.

Results

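The tubulin genes of fully-grown oocytes (FGOs) were compared between mice of wild type (WT) and mice lacking LSM14B (Lsm14b-KO). Their 10 rows of the deposited expression table, out of 24255 genes, were taken by symbol: the 4 α-tubulin genes Tuba1a, Tuba1b, Tuba1c and Tuba4a, the 5 β-tubulin genes Tubb2a, Tubb2b, Tubb3, Tubb4b and Tubb5, and the γ-tubulin gene Tubg1. The libraries were 3 from WT and 3 from Lsm14b-KO females, each made from 20 oocytes at the germinal vesicle (GV) stage, the stage at which the grown oocyte waits in prophase of the first meiosis. KO females carried 2 copies of Lsm14b tm1a(KOMP)Mbp, a reporter-tagged insertion in the gene of an RNA-binding protein, on the C57BL/6J background shared with the WT mice. The insertion is present in every cell of the animal, so the granulosa cells around these oocytes lacked the intact gene too. The paper describes breeding KO mice from homozygous males and heterozygous females, a cross that gives no WT pups. WT females were therefore not littermates of KO females from that cross, and litter cannot be told apart from genotype. All females were primed with PMSG, a hormone preparation that stimulates ovarian follicles (5 IU, 46 h before collection). The age of the mice is not given in the sources used here, and nothing says how many animals each pool of oocytes came from. The p-values below therefore measure the spread between these pools.

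α-Tubulin and β-tubulin join as a dimer, and dimers add end to end to build microtubules. γ-Tubulin sits in ring complexes from which new microtubules grow. The mouse oocyte has no centrioles, and after the germinal vesicle breaks down it builds its meiotic spindle from many scattered sites of microtubule growth, drawing on protein and mRNA stored during growth. Cells also adjust the stability of tubulin mRNA to the amount of free dimer: TTC5 recognizes the start of the nascent tubulin chain on the ribosome and, together with SCAPER, brings in the CCR4-NOT deadenylase.

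The coding sequences are so alike that short reads cannot always be placed. The last 30 coding bases of the β genes, stop codon included, are shown because the 3′ end of the coding sequence, which encodes the C-terminal tail, is where tubulin isotypes are known to differ most. They were read from GENCODE vM21 transcripts (GRCm38, the same assembly as mm10), 5′ to 3′, and capitals mark bases that differ from Tubb4b at the same position counted from the 3′ end.
Tubb4b: gaggaggaggctgaggaggaggtggcttag
Tubb2a: gaggaggaggAGgGTgaAgaTgAggcttGA
Tubb2b: gaggaggaAgAGgGCgaggaTgAggcttGA
Tubb3: gaggaATCggAAgCCCaggGgCCCAAGtGA
Tubb5: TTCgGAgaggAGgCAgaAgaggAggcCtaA
Tubb2a and Tubb2b differed from Tubb4b at 9 of these 30 bases each, Tubb5 at 13 and Tubb3 at 17. No gaps were allowed in this comparison. The coding sequence has 1338 bases in Tubb4b, Tubb2a and Tubb2b, 1335 in Tubb5 and 1353 in Tubb3. The counts of Tubb5 and Tubb3 can therefore include shifted positions, and they do not rank the genes by divergence.

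At the other end of the coding sequence the genes differed less. Codons 2 to 4, in capitals below, encode residues that the autoregulation machinery recognizes on the nascent chain. The first 12 coding bases of Tuba1a, Tuba1b and Tuba1c were identical (atgCGTGAGTGC). Those of Tubb3 and Tubb4b were identical to each other (atgAGGGAGATC), and Tubb5 (atgAGGGAAATC) differed from them in 1 codon only. That difference is silent, as GAG and GAA both encode glutamate. Tubb2a (atgCGCGAGATC) and Tubb2b (atgCGAGAGATC) differed from Tubb4b in codon 2, as did Tuba4a (atgCGCGAGTGC) from Tuba1a. Those differences are silent too, all of these codons encoding arginine. The γ gene Tubg1 opened differently (atgCCGAGAGAA).

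Over the whole coding sequence, Tuba1a was identical to Tuba1b at 98.3% of aligned positions and to Tuba1c at 97.1%. Tubb2a and Tubb2b were identical at 96.5%, and Tuba3a and Tuba3b, a pair of α genes outside the list, at 97.0%. Tubb5 and Tubb4b were identical at 82.2%. To see how far a read could be shared, every window of 150 bases, the length of 1 read, was searched for in the transcripts of all other annotated genes. In Tuba1a, Tuba1b and Tuba1c, 54.7%, 57.9% and 46.7% of windows were also found in another gene, the genes of this trio and several pseudogenes among them. For Tubb2a and Tubb2b the shares were 27.9% and 20.1%, each with the other. Tubb4b shared 16.8% with the pseudogene Tubb4b-ps1, and Tubb3 and Tubb5 shared none. Tuba4a shared 45.7%, all with Stk16, which overlaps it on the other strand. The values of Tuba1a, Tuba1b and Tuba1c, and those of Tubb2a and Tubb2b, are therefore uncertain as single genes and are given as sums as well. Those of Tubb3 and Tubb5 carry no such limit.

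**Figure D1:**
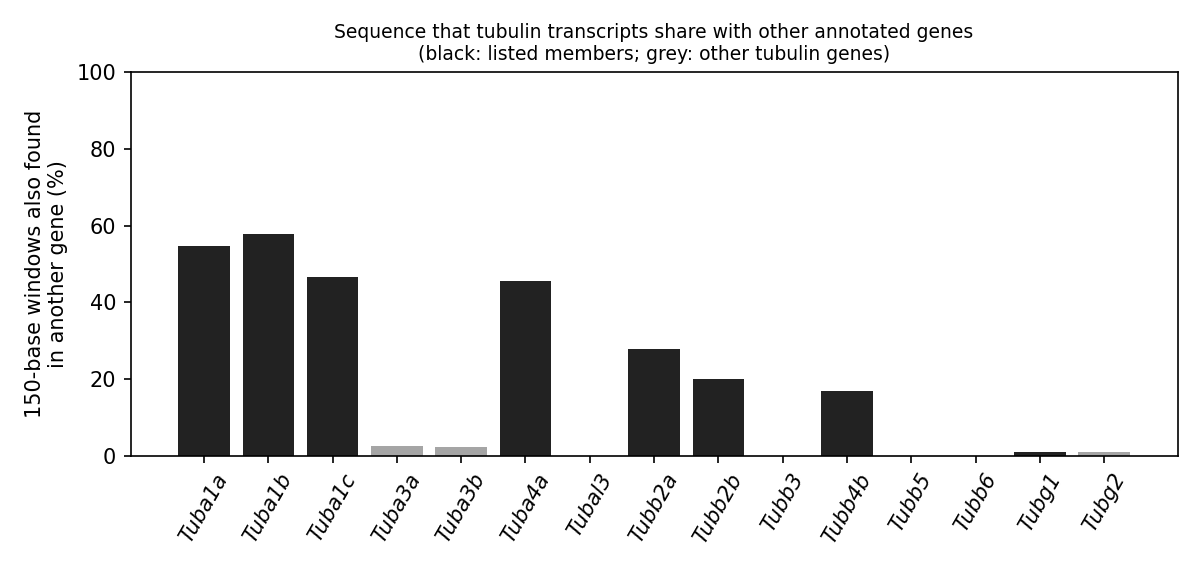
Share of the 150-base windows of each tubulin transcript (percent, y axis) that also occurred in a transcript of another annotated gene, with listed members in black and other tubulin genes in grey. The 3 Tuba1 genes stood at 46.7% to 57.9%, and Tubb3 and Tubb5 at 0.

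By position (GRCm38/mm10), Tuba1b (chromosome 15, 98931425 to 98934565, minus strand), Tuba1a (98949837 to 98953703, minus strand) and Tuba1c (99029891 to 99038110, plus strand) lie side by side. Tuba1a and Tuba1b overlap the annotated gene Gm49450 on their own strand. Tubb2a (34074274 to 34078007) and Tubb2b (34126748 to 34130466) are neighbours on the minus strand of chromosome 13. The other members are Tuba4a (chromosome 1, 75214228 to 75219865, minus strand), Tubb4b (chromosome 2, 25222160 to 25224702, minus strand, overlapping Fam166a on the other strand), Tubb3 (chromosome 8, 123411424 to 123422015, plus strand, overlapping Gm20388 on its own strand), Tubb5 (chromosome 17, 35833921 to 35838306, minus strand) and Tubg1 (chromosome 11, 101119938 to 101126419, plus strand). All are protein coding, and the α and β members have 4 exons each. Whether the libraries keep the strand is not clear from the sources used here. Stk16, the neighbour across the strand from Tuba4a, was listed at 0.10 FPKM or less in each of the 6 libraries.

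Expression was deposited as FPKM, that is, fragment numbers divided by transcript length and by the mapped fragments of the library, so levels of different genes can be set side by side. Of the 10 genes, 9 reached 1 FPKM in at least 1 library and were tested among 6398 such genes. Tubg1 did not, its highest value being 0.90 FPKM. In WT FGOs the most abundant was Tubb4b, with 145 ± 38.0 FPKM (SD, n = 3), followed by Tuba1c with 97.6 ± 49.0, Tuba1b with 54.3 ± 29.98, Tubb2a with 43.8 ± 19.7, Tuba1a with 36.1 ± 17.5 and Tuba4a with 22.4 ± 9.40 FPKM (SD, n = 3 each). The ranges of neighbours overlapped along this upper stretch, although within each of the 3 WT libraries the order was the same. Tubb2b (9.96 ± 5.52 FPKM), the neuronal isotype Tubb3 (4.63 ± 0.10 FPKM) and Tubb5 (4.37 ± 1.09 FPKM) were lower (SD, n = 3 each). The ranges of Tuba4a and Tubb2b, and of Tubb2b and Tubb3, were apart, whereas those of Tubb3 and Tubb5 overlapped. In Lsm14b-KO FGOs the order of the means was the same but for Tubb5 and Tubb3, which changed places. Tubb5 was above Tubb3 in all 3 KO libraries, and Tubb3 was above Tubb5 in 2 of the 3 WT libraries.

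The libraries were not alike in ways that touch these genes. Steps between the lowest FPKM values gave relative depths of 1.00 to 1.14 in WT and 1.33 to 2.18 in Lsm14b-KO libraries, and the FPKM sums were 1141000 to 1244000 in WT and 564700 to 1030000 in KO. Targeted Lsm14b was listed at 2.77, 3.98 and 1.72 FPKM in WT and at 0, 0 and 0.10 FPKM in KO replicates 1, 2 and 3. All 12 oocyte markers reached 1 FPKM, 8 with a higher and 4 with a lower fitted level in KO. Of these, Ddx4 rose (log2 fold change 1.35, limma adjusted p 0.005002) and H1foo fell (-1.09, limma adjusted p 0.0310). Ddx4 reached 1 FPKM in KO libraries only. Of 15 cumulus and granulosa cell markers 8 were at 0 in every library (among them Foxl2, Amh and Inhba), with list sums of 9.73 to 13.6 FPKM in WT and 6.13 to 10.1 FPKM in KO. Of the detected ones, Cyp19a1 fell from 10.1 ± 1.65 to 4.75 ± 1.51 FPKM (SD, n = 3 each, limma adjusted p 0.0426). Fshr (0.85 ± 0.72 against 1.94 ± 0.13 FPKM) and Kitl (0.22 ± 0.15 against 0.50 ± 0.088 FPKM, SD, n = 3 each) had higher values in each KO library than in any WT library. So had 19.1% of all tested genes, and Kitl stayed under 1 FPKM and was not tested. In the remaining detected markers, Inha, Hsd17b1, Has2 and Nr5a2, the groups overlapped. All 8 red blood cell markers found in the table were at 0. In 8 of the 9 tested tubulin genes, Tubb3 being the exception, WT replicate 3 was the highest WT library, KO replicate 2 the highest KO library and KO replicate 1 the lowest. The same order of libraries was seen in 13.0% of all tested genes and in 6 of the 12 oocyte markers, namely Zp1, Zp2, Zp3, Gdf9, Bmp15 and Nlrp5. Nlrp5, which encodes a protein of the subcortical maternal complex, had 29.4, 34.2 and 131 FPKM in WT and 48.0, 423 and 144 FPKM in KO replicates 1, 2 and 3. Nlrp5 was singled out after its values were seen. The part of these library differences in the tubulin results was not tested.

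**Figure D2:**
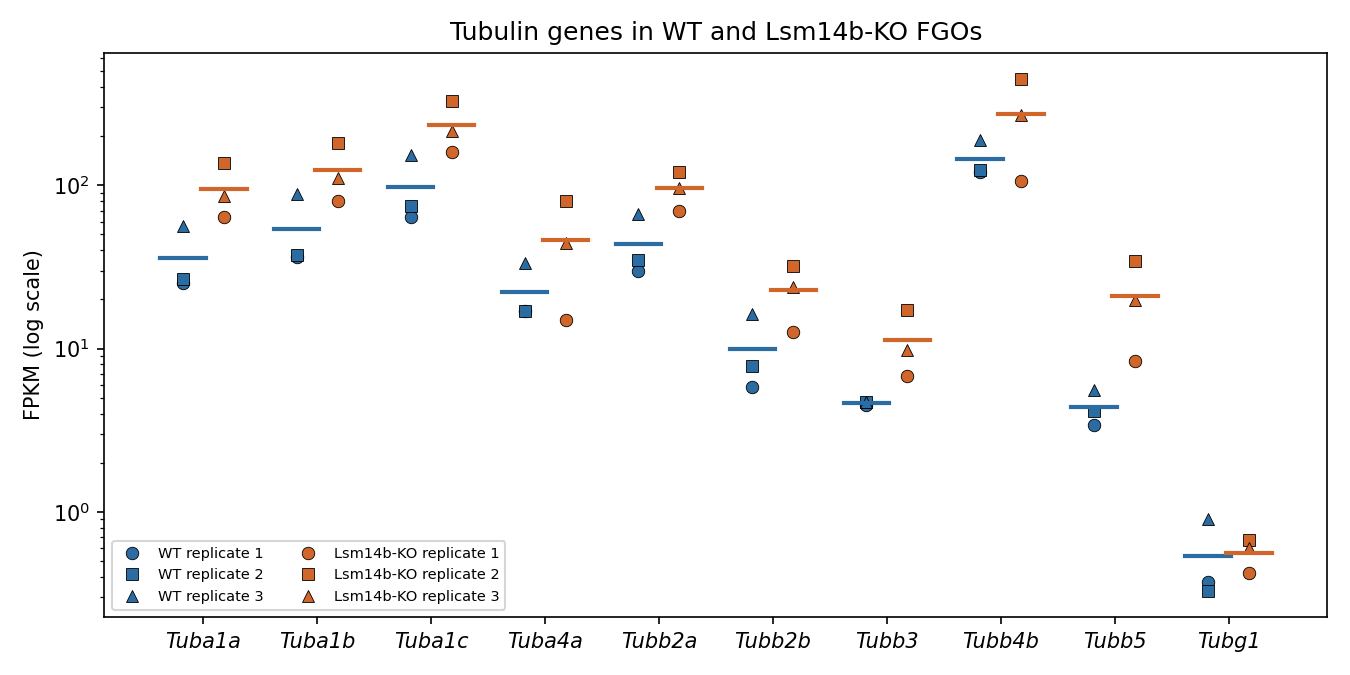
FPKM (log scale, y axis) of the 10 tubulin genes in each library, with WT in blue, Lsm14b-KO in orange, a marker shape for each replicate number and a bar at the group mean. KO means lay above WT means, with groups apart in 5 genes, and Tubg1 stayed under 1 FPKM.

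To ask whether tubulin mRNA differs in FGOs without LSM14B, limma was fitted to log2(FPKM + 1) of all 6398 genes. All 9 tested tubulin genes had a higher fitted level in Lsm14b-KO FGOs, where 46.8% of all tested genes had, and 2 of them, Tubb5 and Tuba1a, rose past an adjusted p of 0.05. Of all tested genes, 21.6% passed it and 6.38% rose past it. The median log2 fold change was 1.16 over the 9 genes and -0.075 over all tested genes. In 5 of the 9 the 3 KO values lay above all 3 WT values, against 19.1% of all tested genes. The other 7 genes had unadjusted p-values of 0.0128 to 0.203, adjusted to 0.0551 to 0.320. In pools of whole oocytes, more cells with a transcript and more of it in each cell cannot be told apart. Paralogs share reads, so the 9 genes are not 9 separate measurements.

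Among the β genes, Tubb5 had the largest fold change, at a low level. It encodes a widely expressed isotype whose human counterpart is called TUBB. Tubb5 had 3.39, 4.18 and 5.55 FPKM in WT replicates 1, 2 and 3, and 8.44, 34.5 and 20.0 FPKM in KO replicates 1, 2 and 3. Every KO library was above every WT library, and the KO libraries differed among themselves more than the WT libraries did. Its means were 4.80-fold apart, and the log2 fold change was 1.85 (SE 0.46, 95% interval 0.80 to 2.91, limma adjusted p 0.0278). The call did not rest evenly on the libraries: it was kept without KO replicate 1 (adjusted p 0.000358) or 2 (0.0428), and lost without any one of the others (0.0693 to 0.107 in limma), with a log2 fold change of 1.41 to 2.36 over the 6 fits.

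Tubb4b, the most abundant β isotype here, had 121, 124 and 189 FPKM in WT and 107, 450 and 269 FPKM in KO replicates 1, 2 and 3. KO replicate 1 lay below all WT libraries and the other KO libraries above all of them. Its log2 fold change of 0.72 had a 95% interval of -0.48 to 1.93 (limma adjusted p 0.319), an interval that includes 0. Leaving out KO replicate 1 gave 1.29 (limma adjusted p 0.00799), and leaving out KO replicate 2 gave 0.26 (limma adjusted p 0.700).

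Tubb3, best known from neurons, was at 4.51, 4.69 and 4.69 FPKM in WT and at 6.75, 17.2 and 9.76 FPKM in KO replicates 1, 2 and 3. The WT libraries were almost equal and the groups did not overlap. Its log2 fold change was 1.03 (SE 0.32, limma adjusted p 0.0551). Tubb3 was the only one of the 9 in which WT replicate 3 did not stand above the other WT libraries.

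Tubb2a and Tubb2b are near-identical β genes. Tubb2a had 30.05, 34.9 and 66.3 FPKM in WT and 69.2, 122 and 96.5 FPKM in KO replicates 1, 2 and 3. Tubb2b had 5.80, 7.86 and 16.2 FPKM in WT and 12.7, 32.1 and 23.8 FPKM in KO libraries in the same order. In Tubb2a the groups were apart by a narrow gap, between WT replicate 3 and KO replicate 1, and in Tubb2b these libraries crossed. Their log2 fold changes were 1.16 (SE 0.39) and 1.14 (SE 0.45), with adjusted p-values of 0.0651 and 0.0983 in limma. The sum of the pair was 53.7 ± 25.2 FPKM in WT and 119 ± 35.9 FPKM in KO FGOs (SD, n = 3 each), 2.21 times, and the groups overlapped. Under TPM scaling the ratio was 3.85 and the groups were apart.

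Among the α genes, the Tuba1 trio showed the same order of libraries. Tuba1a had 25.2, 26.8 and 56.4 FPKM in WT and 63.7, 137 and 85.8 FPKM in KO replicates 1, 2 and 3. Tuba1b had 36.3, 37.6 and 88.9 FPKM in WT and 80.1, 181 and 111 FPKM in KO, and Tuba1c had 63.8, 75.2 and 154 FPKM in WT and 161, 326 and 215 FPKM in KO libraries in the same order. In each, WT replicate 3 stood far above the other WT libraries and close to KO replicate 1, and in Tuba1b it crossed it. Tuba1a rose, with a log2 fold change of 1.41 (SE 0.42, 95% interval 0.43 to 2.38, limma adjusted p 0.04945). That value is just inside the threshold and was lost on leaving out any library but KO replicate 1 (limma adjusted p 0.0544 to 0.174 without each of the other 5, and 0.00684 without KO replicate 1). The log2 fold changes of Tuba1c and Tuba1b were 1.30 and 1.22 (limma adjusted p 0.0641 and 0.0880). Summed, the trio had 125, 140 and 299 FPKM in WT and 304, 644 and 412 FPKM in KO replicates 1, 2 and 3, with means 2.41-fold apart. The sum in KO replicate 1 was barely above that in WT replicate 3.

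Tuba4a, whose product ends without the tyrosine found on most α-tubulins, had 17.0, 16.9 and 33.2 FPKM in WT and 15.0, 80.0 and 44.2 FPKM in KO replicates 1, 2 and 3. As in Tubb4b, KO replicate 1 was below all WT libraries. The log2 fold change was 0.81 with a 95% interval of -0.54 to 2.15 (limma adjusted p 0.320). It was 1.44 without KO replicate 1 (limma adjusted p 0.0113) and 0.28 without KO replicate 2 (limma adjusted p 0.714).

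Tubg1, the γ-tubulin gene of the list, was near the lower end of detection. It had 0.37, 0.33 and 0.90 FPKM in WT and 0.42, 0.67 and 0.60 FPKM in KO replicates 1, 2 and 3. The groups overlapped, and the gene was not tested because it stayed under 1 FPKM.

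**Figure D3:**
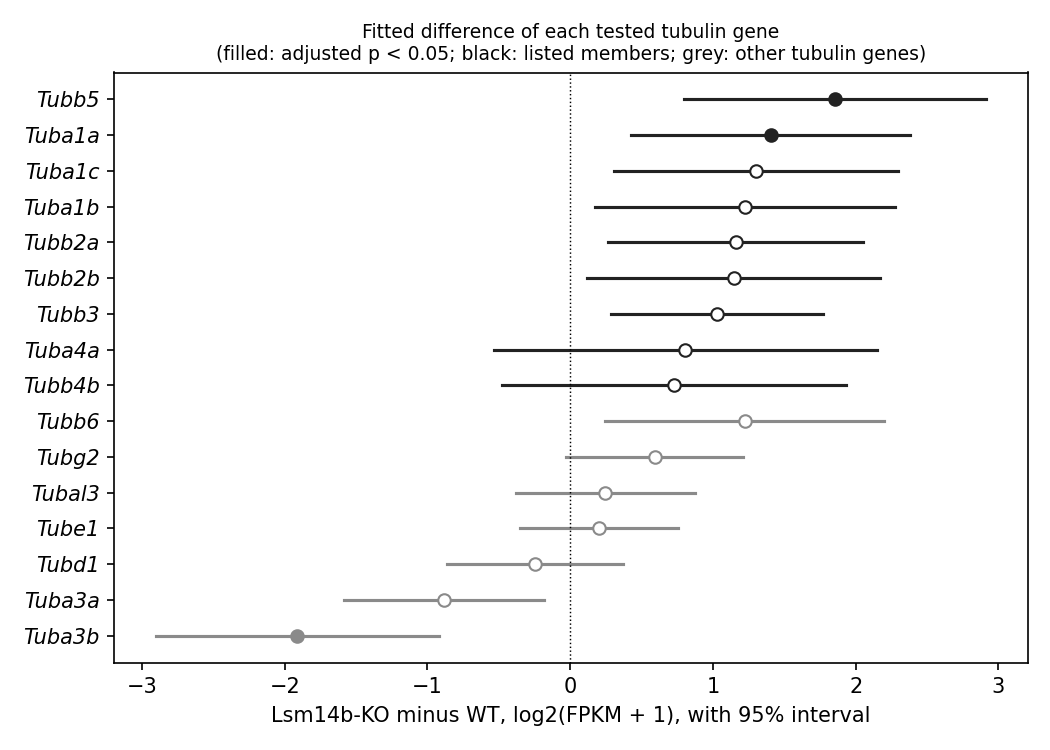
Fitted difference of each tested tubulin gene, Lsm14b-KO minus WT on the log2(FPKM + 1) scale (x axis), with 95% intervals. Listed members are black and other tubulin genes grey, and filled points have an adjusted p under 0.05, which are Tubb5, Tuba1a and Tuba3b.

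How many of the 9 genes passed depended on the libraries and on the scaling, while the direction did not. Without KO replicate 1 all 9 rose past the threshold, and 18.3% of all tested genes did so in that fit. Without KO replicate 2, 1 did (Tubb5, against 3.36%). Without WT replicate 1, 2 or 3, or KO replicate 3, none did in limma (against 1.08%, 1.05%, 1.56% and 0.6%), where 2, 3, 7 and 4 genes had an unadjusted p under 0.05. With all 6 libraries this was 7 of the 9. The count stayed 2 with a pseudocount of 0.1 (6.27% of all tested genes rose), with a minimum of 1 FPKM in 3 libraries (8.54%) and with no intensity trend (5.42%). With no filter on low values, which brings in Tubg1, it was 0 in limma (1.24%), 7 having an unadjusted p under 0.05. After scaling all libraries to 1 common FPKM sum (TPM), 6 of the 9 rose past the threshold, against 13.0% of all tested genes. Quantile normalization and a correction for transcript length and GC content each gave the same 6, which were Tuba1a, Tuba1b, Tuba1c, Tubb2a, Tubb3 and Tubb5, against 8.44% and 10.3%. Scaling moved the median of all tested genes from -0.075 to 0.400 (TPM), 0.069 (quantile) and 0.104 (length and GC). The median of the 9 genes lay 1.24 above that of all genes as deposited, and 1.44, 1.67 and 1.24 above it under the 3 scalings. Of all genes called, 29.5% were higher in KO as deposited, 63.2% under TPM, 42.4% under quantile normalization and 45.2% after the length and GC correction.

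Because paralogs share reads, the classes were also summed. The 4 α members had 142, 157 and 332 FPKM in WT and 319, 724 and 456 FPKM in KO replicates 1, 2 and 3. The 5 β members had 165, 176 and 281 FPKM in WT and 204, 656 and 419 FPKM in KO libraries in the same order. In both classes KO replicate 1 lay below WT replicate 3, so the groups overlapped. The KO mean was 2.38 times the WT mean for the α sum and 2.05 times for the β sum, and under TPM scaling 4.21 times, with groups apart, and 3.74 times, with groups overlapping. Together the 9 genes summed to 418 ± 170.1 FPKM in WT and 926 ± 430.5 FPKM in KO FGOs (SD, n = 3 each), 2.22 times. Without WT replicate 3, whose sum was 1.92 times the mean of the other WT libraries, this was 2.90 times, and without KO replicate 2 it was 1.67 times.

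Ratios of genes within a library do not depend on the factor by which the library is scaled, and they were compared to see whether the make-up of the tubulin mRNA pool differed. The α to β ratio of the members was 0.86, 0.89 and 1.18 in WT and 1.57, 1.10 and 1.09 in KO replicates 1, 2 and 3. The groups overlapped, with a difference in means of 0.28 and SDs of 0.18 in WT and 0.27 in KO (exact permutation test, two-sided p = 0.30, n = 3 each). With 3 libraries against 3 the test cannot give a p below 0.10. With Tuba3a and Tuba3b counted among the α genes the difference changed sign, to -0.12 (exact permutation test, p = 0.60).

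Within the β class, Tubb5 held a larger part in every KO library than in any WT library. For each Tubb4b transcript there were 0.028, 0.034 and 0.029 of Tubb5 in WT and 0.079, 0.077 and 0.074 in KO replicates 1, 2 and 3. The 3 libraries of each group stood close together, although their Tubb5 and Tubb4b levels did not, and the KO mean was 2.53 times the WT mean. Tubb5 made up 2.13% ± 0.21 of the β sum in WT and 4.72% ± 0.56 in KO FGOs (SD, n = 3 each). The groups were apart in both measures (exact permutation test, two-sided p = 0.10, the smallest these libraries allow). Tubb4b remained the main β transcript, with 70.4% ± 3.24 of the β sum in WT and 61.7% ± 8.45 in KO (SD, n = 3 each), with overlapping groups. In KO replicate 1 it held 52.3%, and Tubb2a held 34.0% there against 18.2% to 23.6% in the other 5 libraries. Within the α class the groups overlapped in the shares of Tuba1c and Tuba1b. Tuba1c held 46.4% ± 1.61 in WT and 47.5% ± 2.62 in KO, and Tuba1b 25.4% ± 1.37 and 24.8% ± 0.40 (SD, n = 3 each). Tuba1a held 17.3% ± 0.40 and 19.2% ± 0.61, with groups apart (exact permutation test, p = 0.10). The ratio of Tubb5 to Tubb4b and the α shares were chosen after single-gene values had been seen, and 18 such ratios and shares were computed. None of them can pass 0.05.

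**Figure D4:**
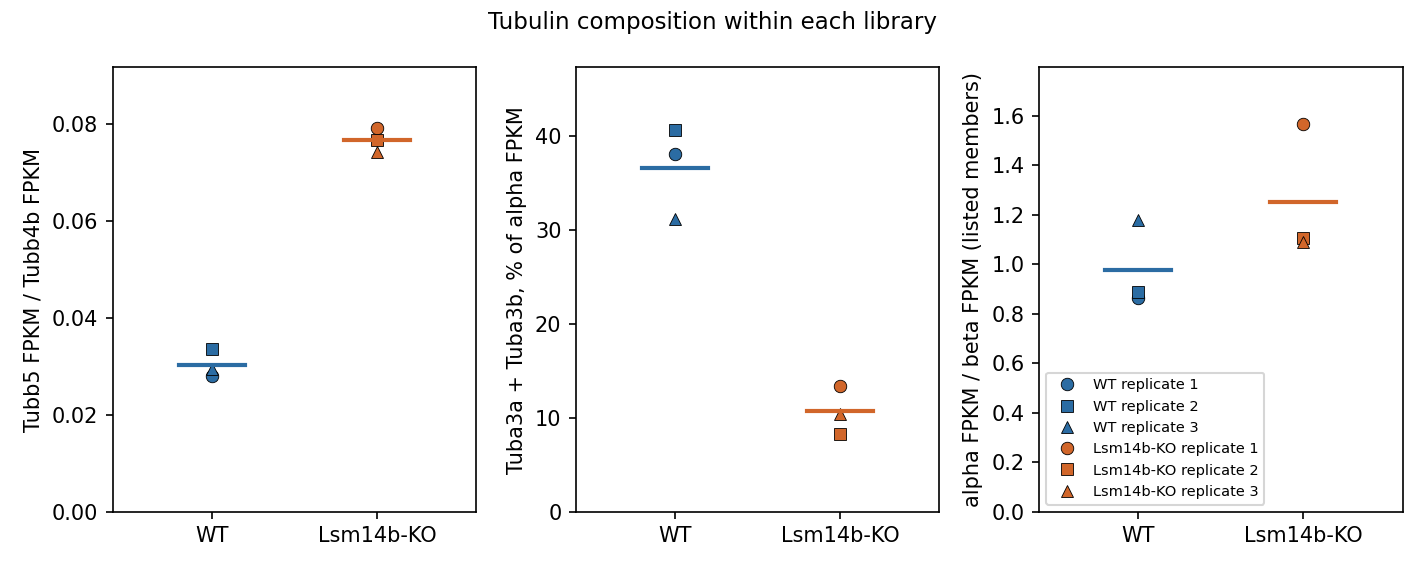
The measures of tubulin make-up in each library, each on a y axis from 0: the ratio of Tubb5 to Tubb4b FPKM, Tuba3a and Tuba3b as a percent of α FPKM, and the α to β ratio of the listed members. Bars are group means, and the groups stood apart in the left and middle panels (0.028 to 0.034 against 0.074 to 0.079, and 31.1% to 40.6% against 8.28% to 13.4%) and overlapped in the right panel.

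A list of 10 other tubulin genes of the mouse was examined for comparison, and 7 were tested. Tuba8, Tubb1 and Tubb4a were at 0 in every library. One of the 7 passed the threshold, and it fell: Tuba3b, an α gene best known from testis, had 7.0, 16.3 and 19.9 FPKM in WT and 1.45, 4.49 and 3.02 FPKM in KO replicates 1, 2 and 3. All KO libraries were below all WT libraries, a pattern seen in 26.0% of tested genes, and 15.2% of tested genes fell past the threshold. The log2 fold change of Tuba3b was -1.91 (SE 0.43, limma adjusted p 0.0207). Without WT replicate 2, WT replicate 3 or KO replicate 3 the adjusted p was 0.0744 to 0.0818 in limma, it was 0.105 under TPM scaling and 0.0607 with no filter on low values, and the difference stayed negative in all 14 alternatives.

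Tuba3a, its close copy, had 80.2, 90.6 and 130 FPKM in WT and 48.0, 60.8 and 50.2 FPKM in KO libraries in the same order. In WT FGOs it was at the level of Tuba1c, and its groups too did not overlap. The log2 fold change was -0.88 (limma adjusted p 0.0704), and it was negative in each of the 14 alternatives, at -0.20 with TPM and past the threshold in 2. Tuba3a and Tuba3b share 2.65% and 2.21% of their 150-base windows with each other and none with the Tuba1 genes. Together they held 38.0%, 40.6% and 31.1% of the FPKM of the 6 α genes in WT and 13.4%, 8.28% and 10.4% in KO replicates 1, 2 and 3. Here the groups stood apart, with means of 36.6% ± 4.89 and 10.7% ± 2.58 (SD, n = 3 each; exact permutation test, two-sided p = 0.10, the smallest possible). This share was chosen after the single-gene values were seen and combines them, so it is no separate support. The sum of the pair in KO was 0.488 times that in WT with groups apart, and 0.828 times under TPM scaling with groups overlapping. Counting this pair, the α sum in KO was 1.71 times that in WT. Tubb6, a further β gene, had 7.53, 16.0 and 12.6 FPKM in WT and 16.9, 47.3 and 27.9 FPKM in KO (log2 fold change 1.22, limma adjusted p 0.0726). Tubal3, a divergent α gene, and Tubg2, the second γ gene, had log2 fold changes of 0.25 and 0.59 (limma adjusted p 0.509 and 0.139). Tubg2 was at 1.67, 1.45 and 0.48 FPKM in WT and at 1.99, 2.82 and 1.91 FPKM in KO, higher than Tubg1 in 5 of the 6 libraries. Tubd1 and Tube1, the δ and ε genes, were near 1 FPKM and had log2 fold changes of -0.25 and 0.20 (limma adjusted p 0.497 and 0.544).

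Genes that fold, nucleate, modify or control tubulin were taken from lists and counted in the same fit. Newly made tubulin passes from prefoldin to the CCT chaperonin and on to the cofactors that assemble the dimer. Of 7 tested CCT genes 3 rose past the threshold, as did 6.38% of all tested genes, and none fell, with a median log2 fold change of 0.76. They were Cct4 (0.74, 0 and 0.29 FPKM in WT against 1.88, 2.80 and 1.96 in KO), Cct3 (25.3 ± 3.52 against 51.4 ± 5.97 FPKM, SD, n = 3 each) and Cct2 (2.73 ± 0.62 against 5.93 ± 1.604 FPKM, SD, n = 3 each). Their adjusted p-values were 0.0137, 0.0350 and 0.0445 in limma. In all 3 the KO values lay above all WT values, as in 19.1% of all tested genes. These 3 were picked by their p-values, so this adds no support. Cct4 and the uncalled Cct7 reached 1 FPKM in KO libraries only, so they entered the test through the group where they are high. With no filter on low values, 2 of 8 CCT genes rose, against 1.24% of all genes. The count of CCT genes that rose was 0 in limma without WT replicate 2, WT replicate 3 or KO replicate 3, where 4, 5 and 3 had an unadjusted p under 0.05. It was 1 without WT replicate 1 and 6 without KO replicate 1, where 18.3% of all tested genes rose. Of 6 prefoldin genes 2 fell, against 15.2% of all tested genes, namely Pfdn4 (5726 ± 845 against 152 ± 155 FPKM, SD, n = 3 each, limma adjusted p 0.00202) and Pfdn6 (87.5 ± 14.8 against 35.2 ± 17.8 FPKM, SD, n = 3 each, limma adjusted p 0.0475). Without any one library except KO replicate 1, only Pfdn4 stayed past the threshold, and 4 fell without KO replicate 1. Under TPM scaling 1 prefoldin gene rose and 1 fell. None of the 4 tested dimer assembly cofactors passed, and 1 had an unadjusted p under 0.05 (limma adjusted p 0.0973 to 0.828), and their median changed sign with the scaling, from -0.51 to 0.15 under TPM.

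For the γ-tubulin ring complex, 5 of 10 genes were tested, and the others stayed under 1 FPKM. All 5 tested genes had a lower fitted level, as had 3401 of the 6398 tested genes. The median log2 fold change of the 5 was -0.92. Tubgcp4 reached 1 FPKM in WT replicate 3 only, so it entered the test through the group where it is high. With a minimum of 1 FPKM in 3 libraries, 4 genes were tested, all with a lower fitted level, and the median was -1.06. With no filter on low values, 6 of the 10 genes had a lower and 4 a higher fitted level, and the median was -0.21. Past the threshold, as were 15.2% of all tested genes, 2 of the 5 fell: Mzt1, a small subunit of the ring, from 13.8 ± 2.34 to 5.39 ± 0.88 FPKM, and Nedd1, which targets the ring to the spindle, from 8.04 ± 1.08 to 3.77 ± 0.31 FPKM (SD, n = 3 each, limma adjusted p 0.0144 and 0.0211). Under TPM scaling none of the 5 passed in limma, none having an unadjusted p under 0.05, and the median was -0.33. The count was 0 in limma without WT replicate 1, WT replicate 2 or KO replicate 3, where 2, 3 and 3 had an unadjusted p under 0.05, and 1 without WT replicate 3. It was 4 without KO replicate 1.

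Of 23 tubulin modifying enzymes found in the table, 7 were tested and 1 fell, a share near the 15.2% of all tested genes. The gene was Tpgs1, a subunit of a polyglutamylase that adds glutamates to tubulin tails (1.53, 1.59 and 1.17 FPKM in WT against 0, 0.63 and 0.14 in KO, limma adjusted p 0.0263). Tpgs1 reached 1 FPKM in WT libraries only, so it entered the test through the group where it is high. The call was lost under TPM scaling, after the length and GC correction, with no filter on low values, and without WT replicate 1, 2 or 3 or KO replicate 3. The 3 genes of tubulin mRNA autoregulation were low and did not pass. Scaper had 0.85, 0.44 and 0.93 FPKM in WT and 1.21, 1.54 and 1.39 FPKM in KO replicates 1, 2 and 3, with groups apart (log2 fold change 0.46, limma adjusted p 0.129). It reached 1 FPKM in KO libraries only. Ttc5 had 0.64, 0.14 and 1.69 FPKM in WT and 0.83, 0.96 and 0.84 FPKM in KO (log2 fold change 0.13, limma adjusted p 0.763), and Cnot11 had a log2 fold change of 0.08 (limma adjusted p 0.801).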

How the data were processed

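RNA-Seq values of 6 libraries were used, 3 WT and 3 Lsm14b-KO. The authors trimmed reads of 150 bases, aligned them to mm10 with TopHat2 2.0.13 and deposited FPKM from Cufflinks 2.2.1, 1 column per library. The annotation is not given in the sources used here. The labels name different library kits in different places. The deposited table also holds the authors' fold changes, p-values and q-values from Cuffdiff, which were not used. It holds no counts, so no count model was fitted. A fragment that fits several paralogs can be split among them by such software.

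Values were transformed to log2(FPKM + 1), a scale that understates changes of low genes. Genes at 1 FPKM or more in at least 1 library entered a two-sided limma fit (version 3.58.1, R 4.3.3, intensity trend, genotype as the only term) with Benjamini-Hochberg adjustment over 6398 genes. The fit was checked on simulated data, with 100 genes changed at each of the sizes below. It recovered 10% of genes with a true absolute log2 fold change of 1 and 55% of those with 2. Of its calls, 1.52% were false. Noise was drawn separately for each gene, so differences that many genes of a library share were not simulated. These rates therefore need not hold for the real libraries. Sums and shares used untransformed FPKM. Sequence and positions came from GENCODE vM21, with 1 transcript per gene, and coding sequences were aligned with Biopython 1.88. The members and lists were chosen with earlier results of these data known. The text names all members, other tubulin genes at 1 FPKM in a library, up to 4 called genes per list, and Ttc5, Scaper and Lsm14b. Other genes (Cnot11, Cct7, Tubgcp4, Stk16, uncalled markers and tubulin genes at 0) were named after their values were seen. Depth is known only in relative terms and limits the lowest genes. An exact 0 can be a failed estimate. The 3′ ends of the α coding sequences are not reported here.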

Additional observations from a re-analysis of the deposited data

How the results depend on the processing

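The direction of all 9 tested tubulin genes, and of Tuba3a and Tuba3b, was the same in each of 14 alternatives. The number of tubulin genes past the threshold was 2 as reported, 0 with no filter on low values, 6 under TPM scaling, quantile normalization and the length and GC correction, and 0 to 9 when 1 library was left out. It stayed 2 with a pseudocount of 0.1, a minimum of 1 FPKM in 3 libraries, or no intensity trend. All genes past the threshold numbered 1383, 720 with no filter on low values, and 321 to 2952 with 1 library left out. With the replicate number as a block the tubulin count was 1 (Tubb5, with Tuba1a at an adjusted p of 0.0567 in limma) and that of all genes 1244, 5.52% of genes rising. Same-numbered libraries deviated together with correlations of 0.19, -0.13 and 0.018. The labels state no pairing, and with 3 libraries per group these correlations cannot settle whether there was any. The KO to WT ratio of sums was 4.21 (α) and 3.74 (β) under TPM scaling, against 2.38 and 2.05. With 1 library left out it was 1.84 to 3.35 (α) and 1.501 to 2.59 (β). The α to β difference was 0.28, and -0.14 over all tubulin genes listed or -0.12 with Tuba3a and Tuba3b added, an alternative chosen after seeing the data. The cause of these differences was not tested. Relative depth was highest in KO replicates 2 and 3, and genes near 1 FPKM such as Tubg1 cannot be ranked firmly.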
